A study of Mus musculus with 6 samples.

Results

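Epithelial cells of the gut are held together by tight junctions, adherens junctions and desmosomes. Claudins are membrane proteins that form the strands of the tight junction. Some claudins seal the space between neighbouring cells, and others let certain ions or water pass. Paneth cells sit among the stem cells at the base of the small intestinal crypt, secrete antimicrobial peptides such as the alpha-defensins, and keep these contacts with the cells around them. The genes described here are 9 junction genes given by name: 5 claudins (Cldn2, Cldn3, Cldn4, Cldn7 and Cldn15), Ocln, F11r, Tjp1 and Cdh1. All 9 were found by symbol among the 55414 gene identifiers of the deposited table, and all 9 were among the 9749 genes that passed the filter on low counts.

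RNA was taken from Paneth cells of wild-type (WT) mice, which had been collected by FACS out of small intestinal cell suspensions. Of the 6 libraries, 3 were from mice on standard chow and 3 from mice on zinc depleted chow, with 7 weeks on the diet in both groups. Both groups had been treated with TNF (tumor necrosis factor) for 3 h, so the comparison is between diets in TNF-treated mice and the response to TNF was not measured. The study's methods describe Paneth cells sorted from C57BL/6J mice. The study states that its sequenced samples, these among them, came from individual mice. The labels do not themselves tie a library to an animal and give no age. The p-values measure the spread between these libraries, which may in part be technical. The libraries held 6139397 to 12772373 counts.

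The labelled cell type was checked first. All 10 Paneth cell markers were detected in the 6 libraries, with a summed level of 419240 to 565950 CPM (counts relative to the library total), and Lyz1, the Paneth cell lysozyme, alone held 119550 to 192220 CPM. After TMM scaling, which is no longer relative to the library total, the sum ran from 242880 to 1222800. Cd24a and Kit, looked up as sorting markers, were uneven. Cd24a had 1249, 1624 and 485 CPM on standard chow and 951, 464 and 370 on zinc depleted chow. Kit had 86.1, 82.6 and 6.82 CPM on standard chow and 32.3, 13.9 and 5.25 on zinc depleted chow. Cd3e of T cells and Cdh5, Kdr and Pdgfra of endothelial and stromal cells had no count in any library. Markers of neighbouring epithelial cells were present at lower levels. All 7 goblet cell markers were detected, and zinc depleted replicate 1 stood apart with a sum of 5757 CPM against 829 to 2534 CPM in the other 5 libraries. Most of that sum was Muc2, the goblet cell mucin, at 4532 CPM there and at 130 to 1445 CPM elsewhere. Only 3 of the 7 markers (Muc2, Clca1 and Sytl2) were highest in that library, and without Muc2 its sum was 1225 CPM, beside 1301 CPM in standard diet replicate 2. All 13 enterocyte markers were detected, and their sums were 404, 446 and 100 CPM on standard chow and 146, 56.5 and 63.4 CPM on zinc depleted chow. All 10 tuft cell markers were detected, with the highest sum, 974 CPM, in standard diet replicate 2 and 35.3 to 248 CPM in the others. Sums of the 7 stem cell markers did not overlap between the diets, at 3726, 1437 and 1201 CPM on standard chow and 598, 486 and 541 CPM on zinc depleted chow, though they overlapped in CPM after TMM scaling. Olfm4 held most of these sums, and without it they overlapped, at 354, 189 and 80.9 CPM on standard chow and 106, 67.2 and 30.4 CPM on zinc depleted chow. At an unadjusted p under 0.05 in edgeR, 4 of 6 tested stem cell markers, 4 of 9 proliferation markers, 3 of 7 enterocyte markers and 3 of 8 enteroendocrine markers were lower, 1 of 7 goblet cell markers and 2 of 10 Paneth cell markers were higher, and none passed after adjustment. Of all 9749 tested genes, 4.03% were lower and 2.58% higher by the same rule. Junction genes are used by all of these epithelial cells, and the part of these cells in the junction values was not tested. Since the libraries are bulk samples, fewer cells of a type and less RNA per cell cannot be told apart.

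The stretch below codes for part of the first outer loop of each claudin, which holds the family signature and faces the space between cells. It is shown because it tells the 5 claudins of the profile apart at a shared position. It is coding sequence of the Ensembl canonical transcript in GENCODE M39 on GRCm39, written from 5′ to 3′ in the sense of the gene. It runs from the first tryptophan codon of the claudin signature to the codon after the second cysteine. Capitals mark the codons of the signature, which are the tryptophan, the triplet glycine (or asparagine), leucine and tryptophan, and the 2 cysteines.
Cldn2: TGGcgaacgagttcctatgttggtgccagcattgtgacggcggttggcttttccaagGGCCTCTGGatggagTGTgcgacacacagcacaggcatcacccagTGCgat
Cldn3: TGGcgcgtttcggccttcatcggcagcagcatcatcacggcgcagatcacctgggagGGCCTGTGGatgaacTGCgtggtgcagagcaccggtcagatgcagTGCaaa
Cldn4: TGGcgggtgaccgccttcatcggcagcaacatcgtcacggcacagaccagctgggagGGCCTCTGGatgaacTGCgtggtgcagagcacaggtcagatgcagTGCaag
Cldn7: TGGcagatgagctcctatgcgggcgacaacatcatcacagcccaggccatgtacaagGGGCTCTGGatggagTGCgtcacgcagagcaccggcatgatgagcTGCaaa
Cldn15: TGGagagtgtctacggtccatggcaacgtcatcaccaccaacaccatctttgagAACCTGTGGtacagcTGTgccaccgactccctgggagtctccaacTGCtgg

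These stretches lie in exon 2 of 2 of Cldn2 (chrX:138709544-138709651, plus strand), exon 1 of 1 of Cldn3 (chr5:135015383-135015490, plus strand) and exon 1 of 1 of Cldn4 (chr5:134975405-134975512, minus strand). Those of Cldn7 (chr11:69856840-69856947, plus strand) and Cldn15 (chr5:136997045-136997149, plus strand) lie in exon 1 of 4 and exon 1 of 5. The last codon shown, just after the second cysteine, encodes aspartate in Cldn2, whose protein forms a cation and water channel. It encodes lysine in the sealing claudins Cldn3 and Cldn4 and in Cldn7, and tryptophan in Cldn15, whose protein also forms a cation channel. In the whole proteins, Cldn3 and Cldn4 were the closest pair, with 68.4% identity over aligned residues. Cldn2 and Cldn15 were the most distant, with 32.7%. Despite the likeness of Cldn3 and Cldn4, every window of 75 bases in the canonical transcripts of Cldn2, Cldn4 and Cldn15 was found in no other gene.

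Overlap with other genes differed among the members. Cldn3 shares 906 exon bases with Wbscr25, a long noncoding RNA gene on the opposite strand, and 33.0% of its 75-base windows were specific to it when strand is ignored. Wbscr25 itself had 0 or 1 count per library. Cldn7 shares 331 exon bases with Elp5 on the opposite strand, and 79.6% of its windows were specific. Elp5 held 128 to 286 counts per library. Whether the count table used strand is not given in the sources used here, so without strand reads from the shared parts could not be told apart. The share of specific windows was 96.6% for F11r and 99.4% for Ocln, and every window of Tjp1 and Cdh1 was specific.

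The claudin profile was read per length, as TPM, the counts divided by the canonical transcript length and set to a common total in each library. Cldn7 and Cldn3 led, with mean levels over the 6 libraries of 81.9 and 73.3 TPM, followed by Cldn2 at 45.8 TPM, Cldn15 at 29.0 TPM and Cldn4 at 16.0 TPM. Cldn7 took 34.7% ± 6.23 of the summed TPM of the 5 claudins and Cldn3 29.8% ± 5.78 (SD, n = 6). Cldn2 took 17.0% ± 6.43, Cldn15 11.3% ± 3.93 and Cldn4 7.19% ± 3.14 (SD, n = 6). Sealing claudins and channel-forming claudins were thus both present in every library.

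Outside these 5 genes, few claudins were detected. Of 25 other claudin genes looked up, 15 had no count in any library, among them Cldn5, the claudin of endothelial cells. A further 8 had counts but did not pass the filter, with at most 12 counts in a library. Only Cldn12 and Cldn23 passed, at mean levels of 4.22 and 0.885 TPM, the first of them above Ocln and Tjp1 per length. The 5 members held 97.3% to 97.9% of all claudin TPM in each library.

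The shares varied between libraries. The share of Cldn7 was 27.7%, 27.8% and 40.7% in standard diet replicates 1 to 3, and 32.2%, 40.3% and 39.6% in zinc depleted replicates 1 to 3. The share of Cldn3, in the same order of libraries, was 35.9%, 37.8% and 27.0% on standard chow and 22.6%, 27.9% and 27.9% on zinc depleted chow. Cldn3 was thus the leading claudin in standard diet replicates 1 and 2, and Cldn7 led in the 4 other libraries. In zinc depleted replicate 1, Cldn2 was above Cldn3.

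The share of Cldn2 was 13.4%, 14.9% and 18.9% on standard chow and 29.3%, 12.9% and 12.7% on zinc depleted chow. One library, zinc depleted replicate 1, held the high value, and the 2 other zinc depleted libraries lay below all standard diet libraries. The share of Cldn4 was 4.78%, 6.18% and 4.26% on standard chow and 5.61%, 11.2% and 11.1% on zinc depleted chow. Zinc depleted replicates 2 and 3 were above every standard diet library, while replicate 1 fell between them, so the groups overlapped. The share of Cldn15 was 18.2%, 13.4% and 9.21% on standard chow and 10.3%, 7.70% and 8.76% on zinc depleted chow, also with an overlap.

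**Figure D1:**
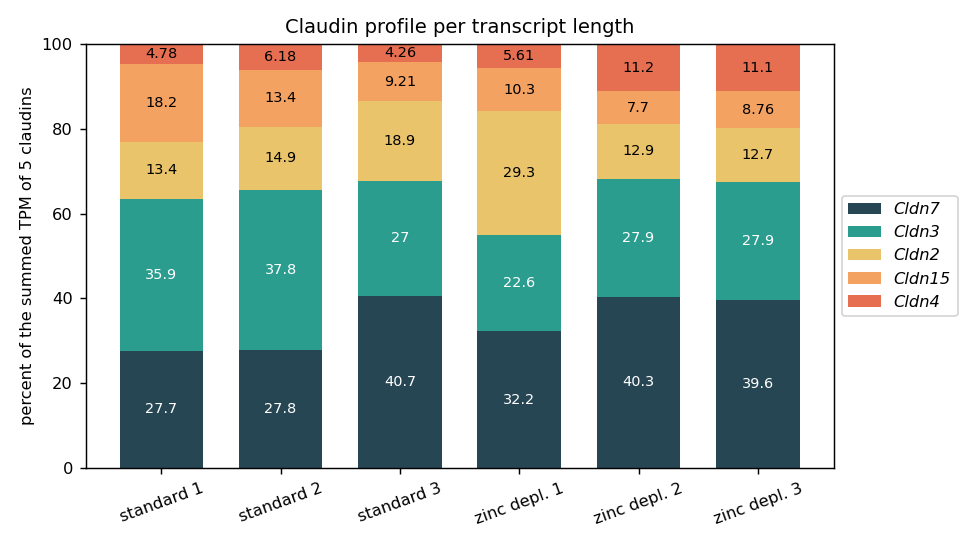
Share of each claudin in the summed TPM of the 5 claudins (percent, y axis) in each of the 6 libraries (x axis), with the value printed in each segment. Cldn7 and Cldn3 hold most of the sum, Cldn2 reaches 29.3% in zinc depleted replicate 1, and Cldn4 is above 11% in zinc depleted replicates 2 and 3.

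Among all 9 members, the order of levels per length over the 6 libraries was Cldn7, Cldn3, Cldn2, Cldn15, Cdh1, F11r, Cldn4, Ocln and Tjp1, by mean log2 TPM. The means in TPM were 30.2 for Cdh1 (E-cadherin, the core adhesion receptor of the adherens junction), 21.1 for F11r (the junctional adhesion molecule JAM-A), 3.11 for Ocln (occludin, a tight junction membrane protein) and 1.35 for Tjp1 (ZO-1, the scaffold that ties claudins to actin). In CPM, 5 members (Cldn2, Cdh1, Cldn7, Cldn3 and F11r) were among the 300 most abundant genes of the table. Per canonical transcript length, Ocln ranked 8th and Tjp1 9th in all 6 libraries. The log2 ratio of Cldn4 to Ocln was 2.52 ± 0.97 (SD, n = 6) and that of Ocln to Tjp1 was 1.34 ± 0.78 (SD, n = 6), each in the same direction in 6 of 6 libraries. The exact two-sided sign-flip permutation test gave p = 0.03125 for each of them, the smallest p that 6 libraries allow. After Benjamini-Hochberg adjustment over the 8 neighbouring pairs it was 0.125. Before division by length (1816 bases for Cldn4, 6779 for Ocln, 6932 for Tjp1), Ocln was above Cldn4 in standard diet replicate 1. There Ocln had 59.7 CPM and Cldn4 34.1, while Cldn4 was higher in every other library. Ocln exceeded Tjp1 in CPM in every library. The share of counts in long transcripts differed between libraries, as given below. Its part in the per-length levels of Ocln and Tjp1 was not tested.

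Other neighbours lay closer together. Cldn7 exceeded Cldn3 in 4 of 6 libraries, with a log2 ratio of 0.22 ± 0.49 (SD, n = 6), and this order turned to -0.44 when the union of all exons was used as length, with Cldn3 then higher in 6 of 6. With that length, Ocln exceeded Tjp1 in 5 of 6 libraries and F11r exceeded Cldn4 in 3 of 6. Cldn3 exceeded Cldn2, Cldn2 exceeded Cldn15 and F11r exceeded Cldn4 in 5 of 6 libraries each, with log2 ratios of 0.86, 0.59 and 0.38. Cldn15 exceeded Cdh1 in 2 of 6 and Cdh1 exceeded F11r in 3 of 6. None of the 8 neighbouring pairs passed the adjusted threshold of 0.05, which this number of libraries and pairs could have reached only if more pairs were in the same order in every library. The order of the 9 genes was the same without zinc depleted replicate 1.

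To compare the diets, each member was read in CPM scaled by TMM, a method that sets libraries on the level of their bulk of genes instead of their total. This choice matters here, because the 10 most abundant genes held 65.6% to 82.5% of the counts of a library and the TMM factors ranged from 0.460 to 1.73. The 9 members together held 0.106%, 0.115% and 0.0922% of the counts of the standard diet libraries and 0.175%, 0.0680% and 0.0541% of the zinc depleted libraries. Zinc depleted replicate 1 was the highest and the 2 other zinc depleted libraries were the lowest, well apart from the counting error (the Wilson 95% intervals were 0.172% to 0.177% and 0.0528% to 0.0699%, respectively).

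No member passed the adjusted threshold of 0.05 in the quasi-likelihood test of edgeR. The background was the same: 0 of 9749 tested genes passed, which is 0.0%. Of all tested genes 645 had an unadjusted p under 0.05 in edgeR, and DESeq2 and limma-voom called 10 and 0 genes, none of them a member. At an unadjusted p under 0.05, 1 of 9 members (Cldn4) was higher on zinc depleted chow, beside 2.58% of all genes, and 0 members were lower, beside 4.03%. In TMM-scaled CPM the groups did not overlap for 1 member, again Cldn4, which was higher, beside 3.51% of all genes. No member was lower without overlap, beside 6.58% of all genes. A single gene of 9 is no result about the members as a list. In total-count CPM the groups overlapped for all 9.

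**Figure D2:**
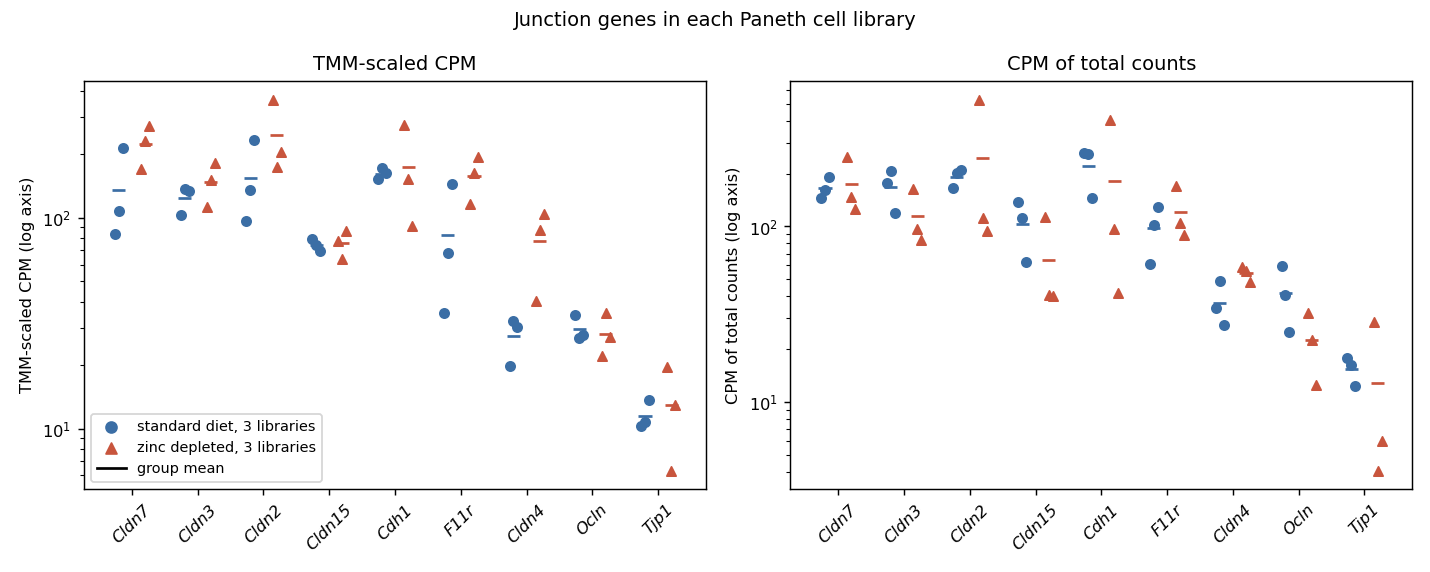
Level of the 9 junction genes in each library, in TMM-scaled CPM (left) and in CPM of the total counts (right), on log axes. Circles are the 3 standard diet libraries, triangles the 3 zinc depleted libraries and lines the group means. Cldn4 separates the diets on the left only, and the wide spread of zinc depleted Cldn2, Tjp1 and Cdh1 on the right comes with 1 high library.

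Cldn4, a sealing claudin, lies on the minus strand of chromosome 5 (chr5:134973973-134975788). It had 19.7, 32.5 and 30.4 TMM-scaled CPM on standard chow and 40.2, 87.3 and 104 on zinc depleted chow. Every zinc depleted library was above every standard diet library, with zinc depleted replicate 1 nearest to them. In edgeR the log2 fold change (zinc depleted minus standard diet) was 1.49 with an SE of 0.45. Leaving out each library in turn gave 1.25 (without zinc depleted replicate 3) to 1.81 (without zinc depleted replicate 1). The unadjusted p of edgeR was 0.00657 and its adjusted p 0.681. In CPM of the total counts the values were 34.1, 48.9 and 27.3 on standard chow and 58.6, 55.9 and 47.9 on zinc depleted chow. With total counts the log2 fold change was 0.56 with an SE of 0.44, and standard diet replicate 2 lay above zinc depleted replicate 3.

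Cldn2, the cation and water channel claudin, lies on the X chromosome (chrX:138701480-138712135). It had 96.0, 135 and 233 TMM-scaled CPM on standard chow and 363, 174 and 205 on zinc depleted chow. The groups overlapped, since standard diet replicate 3 was above zinc depleted replicates 2 and 3. Its log2 fold change was 0.68 with an SE of 0.48 (edgeR adjusted p = 0.707). Leaving out zinc depleted replicate 1, the library with the high Muc2, gave 0.30. In counts, Cldn2 reached 5286 in that library and 829 to 2089 in the others.

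Cldn7, the most abundant claudin per length with the canonical transcript but not with the union of exons, encodes a claudin that is also found along the lateral membrane (chr11:69852648-69858711). It had 83.9, 107 and 213 TMM-scaled CPM on standard chow and 170, 231 and 273 on zinc depleted chow. Standard diet replicate 3 lay within the range of the zinc depleted libraries. Its log2 fold change was 0.74 with an SE of 0.46 (edgeR adjusted p = 0.687). In total-count CPM it had 145, 162 and 191 on standard chow and 247, 148 and 126 on zinc depleted chow, and the log2 fold change was 0.07.

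Cldn3, a sealing claudin (chr5:135015068-135016326), was among the steadier members. It had 103, 137 and 133 TMM-scaled CPM on standard chow and 113, 151 and 181 on zinc depleted chow, with overlapping groups. For Cldn3 the log2 fold change was 0.25 with an SE of 0.39 (edgeR adjusted p = 0.848), and -0.55 with total counts only. Cldn15, a cation channel claudin of the small intestine (chr5:136995470-137004712), had 79.7, 74.2 and 69.4 TMM-scaled CPM on standard chow and 77.9, 63.5 and 86.8 on zinc depleted chow. Its highest library was 1.37 times its lowest, the narrowest range of the 9 members on this scale. For Cldn15 the log2 fold change was 0.03 with an SE of 0.36 (edgeR adjusted p = 0.982), and -0.68 with total counts only.

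F11r (chr1:171265092-171292958) had 35.3, 68.0 and 145 TMM-scaled CPM on standard chow and 116, 163 and 195 on zinc depleted chow. Standard diet replicate 3 was above zinc depleted replicate 1, and the range over all libraries, 5.52-fold, was the widest of the 9 members on this scale. Its log2 fold change was 0.93 with an SE of 0.52 (edgeR adjusted p = 0.681). It was 1.66 without standard diet replicate 3, 0.57 without standard diet replicate 1 and 0.31 with total counts only. Ocln (chr13:100630334-100689535) had 34.6, 26.8 and 27.7 TMM-scaled CPM on standard chow and 22.1, 35.3 and 27.1 on zinc depleted chow. It was the only member with a fitted value below 0, at -0.08 with an SE of 0.36 (edgeR adjusted p = 0.954), and the value was 0.08 without zinc depleted replicate 1 and -0.89 with total counts only.

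Tjp1 (chr7:64945898-65177529) was the least abundant member, with 99 to 130 counts on standard chow and 286, 30 and 76 on zinc depleted chow. Its TMM-scaled CPM were 10.3, 10.7 and 13.6 on standard chow and 19.6, 6.31 and 12.9 on zinc depleted chow. The zinc depleted libraries held both its highest and its lowest value. The fitted value was 0.19 with an SE of 0.44 (edgeR adjusted p = 0.905), and -0.24 when zinc depleted replicate 1 was left out.

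Cdh1 (chr8:107329941-107396880) also held its highest and lowest values in the zinc depleted libraries. It had 152, 171 and 162 TMM-scaled CPM on standard chow and 277, 152 and 91.1 on zinc depleted chow. The SD was 9.76 on standard chow and 94.5 on zinc depleted chow (n = 3 each). The fitted value was 0.10 with an SE of 0.46 (edgeR adjusted p = 0.955), and -0.40 when zinc depleted replicate 1 was left out.

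Across the members, 8 of 9 fitted values were above 0 with TMM, with a median of 0.25, beside 0.00 as the median over all 9749 tested genes. With total counts only, 4 of 9 were above 0 and the median was -0.25, beside a median of -0.66 over all tested genes. The direction of Cldn3, Cldn15, Tjp1 and Cdh1 flipped between these scalings, and that of Cldn2, Cldn4, Cldn7, F11r and Ocln did not. The members' median was above the median of all genes under both scalings. A change of scaling moves all genes together, so the second scaling is no separate support. The list was also chosen with earlier results of these data known, so no result about the list is drawn. No member passed the test under either scaling.

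**Figure D3:**
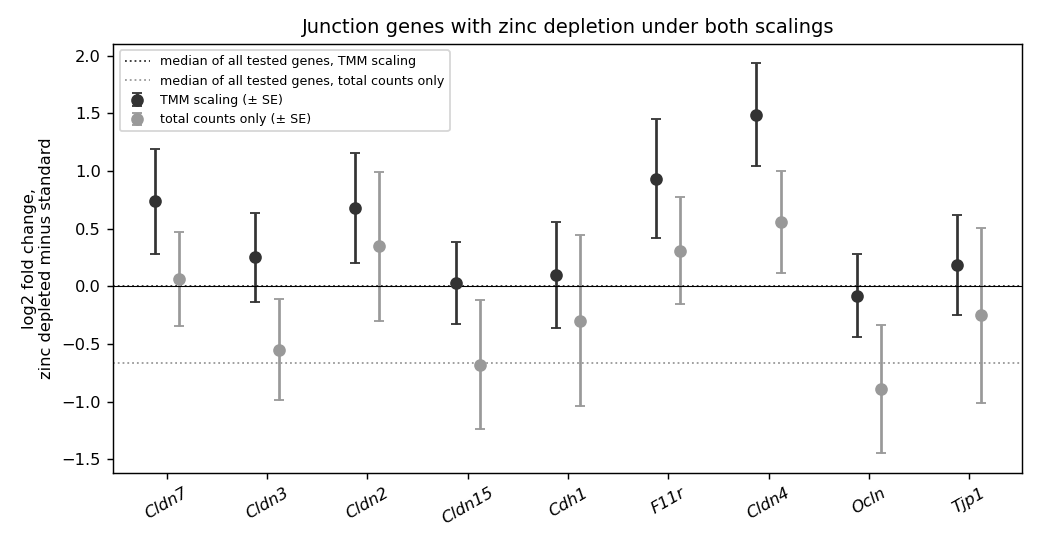
Log2 fold change (zinc depleted minus standard diet, y axis) of the 9 junction genes with its standard error, under TMM scaling (dark) and with total counts only (grey). Dotted lines give the median of all tested genes under each scaling, 0.00 and -0.66. All members except Ocln lie above 0 with TMM, and 5 lie below 0 with total counts.

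Over all genes, the fold changes between the diets differed by transcript length. The median log2 fold change was 0.60 for tested genes with transcripts up to 1000 bases and -0.14 for those above 6000 bases. Transcripts over 4000 bases held 15.0%, 13.4% and 8.98% of the counts outside the alpha-defensins on standard chow and 16.9%, 6.35% and 4.85% on zinc depleted chow. The members span both ends, from 1259 bases in Cldn3 to 6932 in Tjp1. After the trend over all genes was subtracted, the value of Cldn4 was 1.38, F11r 0.99, Cldn2 0.71, Cldn7 0.45, Tjp1 0.33 and Cdh1 0.19. Ocln came to 0.06, Cldn15 to -0.05 and Cldn3 to -0.06. The part of transcript length in the members' values was not tested beyond this subtraction.

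A ratio of a pair of genes within a library does not depend on the scaling. The log2 ratio of Cldn4 to Cdh1, in TMM-scaled CPM, was -2.94, -2.40 and -2.42 on standard chow and -2.78, -0.80 and 0.19 on zinc depleted chow. Zinc depleted replicate 1 was among the standard diet libraries and the other two were above them. The ratio does not tell a higher Cldn4 from a lower Cdh1. In CPM of the total counts, Cldn4 had 58.6, 55.9 and 47.9 in zinc depleted replicates 1 to 3. Cdh1 had 403, 97.2 and 41.9 there. The part of transcript length (1816 bases for Cldn4, 4430 for Cdh1) in the ratio was not tested. The difference in means of this ratio was 1.46 (exact two-sided permutation test, p = 0.3, adjusted p = 0.6 over 8 ratios). It was 2.28 without zinc depleted replicate 1 and 0.80 without zinc depleted replicate 3. The largest departure by p was F11r to Cdh1, with a difference of 1.18 (exact permutation p = 0.2, adjusted p = 0.6), and it ran from 0.63 without zinc depleted replicate 3 to 1.80 without zinc depleted replicate 1. An exact test of 3 against 3 cannot go below 0.1, so no ratio could have passed. Against the sum of the 9 members, the difference for Cldn4 was 0.87 (exact permutation p = 0.2, adjusted p = 0.36).

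Whether the 9 genes moved together from library to library was asked next. Over the 36 pairs, in log2 TMM-scaled CPM, the median Pearson r was 0.004 and the range was -0.888 to 0.986. In 4 pairs r was above 0.8. The closest pair was Cldn7 and F11r, with r = 0.986 and Spearman rho = 1.00 (n = 6, exact permutation p = 0.00139 and 0.00278, adjusted over 36 pairs 0.05 and 0.1), and r was 0.998 without the 2 libraries farthest from the median of Cldn7. The adjusted value equals the threshold and is not below it, and no pair passed.

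The other close pairs were Cldn3 and Cldn4 (r = 0.857, rho = 0.829), Cldn4 and Cldn7 (r = 0.827, rho = 0.829) and Cldn4 and F11r (r = 0.823, rho = 0.829). Their exact permutation p-values for r were 0.0319, 0.0569 and 0.0542, and 0.383, 0.406 and 0.406 after adjustment. Without the 2 libraries farthest from the median of the gene named first, r was 0.506, 0.668 and 0.792. The libraries left out differed, so these values do not rank the pairs. They were standard diet replicate 1 and zinc depleted replicate 3 for Cldn3, and zinc depleted replicates 2 and 3 for Cldn4. All of these r values are of TMM-scaled CPM. In CPM of the total counts, Cldn4 was lowest in standard diet replicate 3 (27.3). Cldn7 and F11r had 191 and 130 in that library, second only to zinc depleted replicate 1. Cldn3 was lowest in zinc depleted replicates 2 and 3 (96.4 and 83.2). These pairs thus did not share an order of libraries under both scalings. Ocln and Tjp1 ran opposite in TMM-scaled CPM, with r = -0.888 and rho = -0.771 (exact permutation p = 0.0236 and 0.103, adjusted 0.383 and 0.463). Without the 2 libraries farthest from the median of Ocln, r was -0.865. With total counts only, the lowest r of any pair was -0.269, so no pair ran this far opposite under that scaling.

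With total counts only, the picture of coherence was another one. The median r of the 36 pairs was 0.648, 29 pairs were positive and 13 were above 0.8, again with 0 pairs under the adjusted threshold. In CPM of the total counts, 6 of 9 members were highest in zinc depleted replicate 1 and 6 of 9 were lowest in zinc depleted replicate 3. In TMM-scaled CPM, 5 of 9 were lowest in standard diet replicate 1 and 5 of 9 were highest in zinc depleted replicate 3. Cldn7 and F11r ordered the 6 libraries exactly in reverse of the TMM factors, as did 216 of the 9749 tested genes, so both genes share their order of libraries with the scaling factors. Without zinc depleted replicate 1 the median r in TMM-scaled CPM was -0.04 (n = 5). There, 8 of the 36 pairs were above 0.8, against 4 with all libraries, and 0 pairs were under the adjusted threshold.

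**Figure D4:**
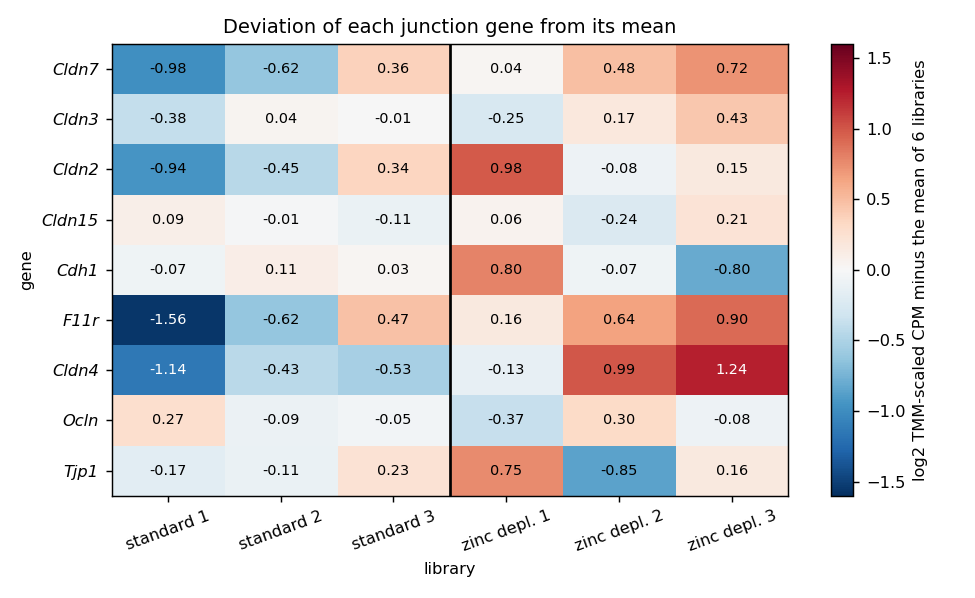
Deviation of each junction gene (rows, in order of level per length) from its own mean over the 6 libraries (columns), in log2 TMM-scaled CPM, with the value printed in each cell. Cldn7, F11r and Cldn4 run from below their mean in standard diet replicate 1 to above it in zinc depleted replicate 3, while Cldn2, Cdh1 and Tjp1 are highest in zinc depleted replicate 1.

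The genes whose pattern over the 6 libraries was most like that of Cldn7, the member with the highest level per canonical transcript length, were Morf4l2 (r = 0.999), Rab5a (r = 0.998), F3 (r = 0.995), Tuba1c (r = 0.995) and Sdcbp (r = 0.995). F3 was near the detection limit, with 0 to 4.77 TMM-scaled CPM. A value of 0.9 or more was reached by 543 of 9740 genes.

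Other genes of the junctions were looked up in lists by role, 92 genes in all, of which 56 were tested. None passed the adjusted threshold in the edgeR test. With TMM, 29 were above 0 and 27 below, with a median log2 fold change of 0.08, and with total counts only 7 were above 0, with a median of -0.51. At an unadjusted p under 0.05, 2 of the 56 were higher and 1 was lower, beside 2.58% and 4.03% of all tested genes, so these few genes are no result about the lists.

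Among other tight junction membrane proteins, 7 of 11 were tested and the most abundant per length was Lsr, an angulin of tricellular contacts, at 37.5 TPM. Igsf5 (JAM4) had 2.13, 1.41 and 7.14 TMM-scaled CPM on standard chow and 5.36, 9.89 and 14.0 on zinc depleted chow (log2 fold change 1.45, edgeR unadjusted p = 0.0394, adjusted p = 0.681). Its groups overlapped in standard diet replicate 3. In the list of scaffolds and polarity proteins, 16 of 21 genes were tested. Its most abundant entry was Ybx3 at 27.5 TPM, a nucleic acid-binding protein and not itself a scaffold. Tjp3 followed among the tested genes at 8.62 TPM. Crb3, an apical polarity protein, had 14.4, 18.5 and 26.9 TMM-scaled CPM on standard chow and 28.2, 34.9 and 53.8 on zinc depleted chow, without overlap, as for 3.51% of all genes (log2 fold change 0.97, edgeR unadjusted p = 0.0379, adjusted p = 0.681). With total counts only, the log2 fold change was 0.20 for Crb3 and 0.74 for Igsf5. Amot, angiomotin, had 10.5, 4.76 and 2.90 on standard chow and 1.79, 2.95 and 0.341 on zinc depleted chow (log2 fold change -1.86, edgeR unadjusted p = 0.0228, adjusted p = 0.681). Its groups overlapped in zinc depleted replicate 2.

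In the adherens junction list 12 of 14 genes were tested, and Epcam, an epithelial adhesion molecule that binds claudin-7, was the most abundant at 115 TPM, above every member. In the desmosome list 8 of 9 were tested and Perp led at 16.7 TPM. In the list for junction contractility 11 of 12 were tested and Rhoa, the GTPase upstream of myosin activation, led at 26.6 TPM. None of the tested genes of these lists had an unadjusted p under 0.05. The median log2 fold change was -0.08 in the adherens junction list, -0.02 in the desmosome list and 0.24 in the contractility list, and all of these medians were below 0 with total counts only (-0.48, -0.54 and -0.28).

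**Figure D5:**
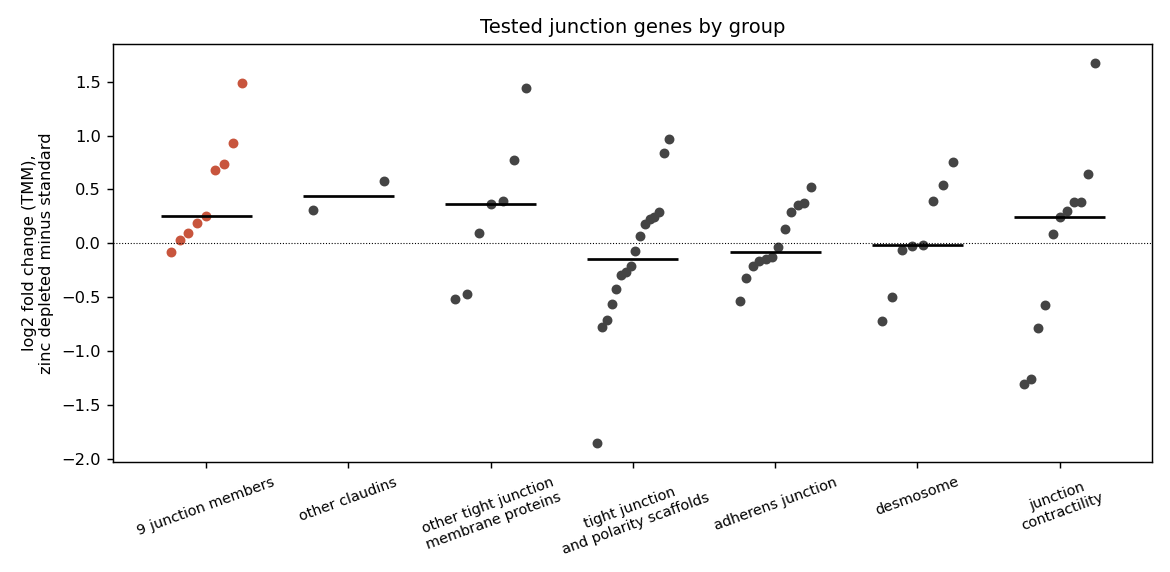
Log2 fold change (TMM scaling, zinc depleted minus standard diet, y axis) of each tested junction gene, by group (x axis), with the group median as a line. The 9 members (red) have a median of 0.25, the other groups have medians between -0.14 and 0.44, and no gene shown passed the adjusted threshold.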

How the data were processed

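Single-end sequencing was done on an Element AVITI, and the authors deposited raw counts per gene for 6 libraries. The submitters' processing notes name FastQC, Trimmomatic 0.39, STAR 2.7.10a, DESeq2 and mm39. Which program counted the reads, with or without strand, and how it handled multi-mapping reads is not given in the sources used here. The design text names more replicates per group than the 3 in the labels.

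Gene names, positions and canonical transcript lengths came from GENCODE M39 on GRCm39, where 54749 of 55414 identifiers were found. In no library did the rest exceed 0.00479% of the counts. Diets were compared by edgeR 4.0.16 (R 4.3.3, glmQLFTest) on the counts, with filterByExpr, TMM and diet as the only term, two-sided, with Benjamini-Hochberg adjustment over all 9749 tested genes. The SE is the size of the log2 fold change over the root of F. The biological coefficient of variation was 44.0%. The fit was tested on simulated data. Log2 CPM used a prior count of 2. TPM was computed here over all genes with a length. A count of 0 allows up to 3 counts (0.235 to 0.489 CPM). Floors and Wilson intervals cover counting error only. Ratios, levels and correlations used exact permutation tests over all arrangements, computed in Python. Ranks and Wilson intervals came from SciPy. Sequences were read from the GENCODE transcripts.

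The alternatives were DESeq2 1.42.0, limma-voom (limma 3.58.1), RLE size factors, total counts, scaling without alpha-defensins, no filter, a replicate block and leaving out each library. The trend on transcript length (lowess, fraction 0.3) and 2 analyses without zinc depleted replicate 1 were chosen after seeing the data. The members and lists were chosen with earlier results of these data known. Of other junction genes, the text names the most abundant per length in each list and those with an unadjusted p under 0.05. It also names the 5 genes with the highest r to Cldn7. All libraries differed from each other by more than sampling noise.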

Additional observations from a re-analysis of the deposited data

How the results depend on the processing

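No member passed the adjusted threshold under any alternative, with adjusted p-values for Cldn4 from 0.117 to 1.00. The number of genes called was 0 with edgeR (645 at an unadjusted p under 0.05), 10 with DESeq2, 0 with limma-voom (625 unadjusted) and 76 without a filter on low counts. Leaving out each library in turn gave 0 to 28 calls, the highest without standard diet replicate 3, and none of the 28 was a member. Cldn2, Cldn4, Cldn7 and F11r kept their direction under all 14 alternatives. With total counts only, the log2 fold changes turned to -0.55 for Cldn3, -0.68 for Cldn15, -0.25 for Tjp1 and -0.30 for Cdh1, and the median pairwise r moved to 0.65. Cdh1 was also at -0.10 with limma-voom. Leaving out each library gave -0.030 to 0.18 for Cldn15, -0.24 to 0.082 for Ocln, -0.24 to 0.54 for Tjp1 and -0.40 to 0.45 for Cdh1. With the replicate block, 0 genes were called (962 at an unadjusted p under 0.05 in edgeR) and Cdh1 was at -0.049. Deviations of same-numbered libraries correlated at 0.147, -0.058 and 0.248, and those of different-numbered libraries at -0.278 to 0.250. These values do not exclude a pairing. The labels do not say that the numbers pair the samples, and they were not taken to do so. The union of exons as length put Cldn3 above Cldn7, and the causes of these changes were not tested. A spread between libraries of 44.0% (biological coefficient of variation) limits what 3 libraries per group can show.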
